A study of Mus musculus with 21 samples.

Results

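Osteocalcin is the most abundant non-collagen protein that osteoblasts lay down in bone, and type I collagen is the fibre that forms most of the organic matrix of bone. In the mouse, Bglap and Bglap2 encode osteocalcin, Bglap3 is a closely related gene beside them, and Col1a1 and Col1a2 encode the chains of type I collagen. These 5 genes of the 26852 in the deposited table were selected on their measured values in these libraries, with earlier results known. Their levels are therefore a description, given with no test.

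Osteoblasts make both products in sequence. Type I collagen is made early and throughout matrix formation, and its molecule, many of which assemble into a fibre, is a triple helix with more alpha 1 chains (Col1a1) than alpha 2 chains (Col1a2). Osteocalcin appears later, in mature osteoblasts, where vitamin K-dependent carboxylation gives it its affinity for bone mineral, and the factors Runx2 and Sp7 (osterix) are required for osteoblasts to form.

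The table holds RNA-seq values for mesenchymal cells with low Nestin reporter signal, sorted from the bone marrow of NSG mice, an immunodeficient strain, that carry a Nestin-GFP transgene. Leukemic hosts received 1 of the human acute myeloid leukemia (AML) lines HL60 and ML1 without conditioning, at 8 to 12 weeks of age. The lines carried a secreted mCherry (ch) that neighbouring cells take up, so ch+ cells of early hosts had lain near leukemic cells and ch− cells of the same stage had not taken up the label. The comparisons ask how niche cells differ at early and late leukemia, near leukemic cells and away from them.

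There were 7 groups of 3 libraries, all from Nestin-GFP NSG hosts: mice with no graft (ctrl), HL60 and ML1 hosts at the early stage as ch− and as ch+ cells, and HL60 and ML1 hosts at the late stage, which were not split by ch. The labels give stages and no days, no engraftment level and no age at sampling. The study describes ch+ and ch− cells as taken from shared marrow, so these arms can share hosts, but the labels do not pair their libraries and the fit treats them as independent. The labels also do not say whether each library is 1 animal, so the spreads and p-values below measure spread between libraries. The treatment label of the 3 ML1 late libraries reads unengrafted, whereas their titles and time point say late, and they were kept as ML1 late. The extraction label speaks of a CD31+ endothelial sort. In the table, the endothelial gene Pecam1 (CD31) lay between 4.53 and 6.21 in log2 value, the mesenchymal genes Lepr and Cxcl12 between 12.24 and 14.81 and between 14.89 and 16.44, and Nes (Nestin) between 6.61 and 7.87 over all 21 libraries.

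All values are the deposited log2 values, in which a difference of 1 is a doubling. The authors regularized them, which shrinks differences, most of all for weakly expressed genes, so folds and summed values below are on that scale and not those of plain normalised counts. Read depth of each library is not known from the table, because the deposited values are already normalised. After undoing the logarithm, the values of a library summed to between 11.2 and 14.7 mega-units in the ctrl and early libraries and to between 7.26 and 9.02 mega-units in the late ones. A single gene, CT010467.1, held between 16.8% and 38.6% of these sums. Libraries of the same group correlated across genes with Pearson r between 0.935 and 0.976. All 5 members passed the filter on low values, a mean of at least log2(10) over the 21 libraries, as did 12976 genes in all (48.3%).

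The osteocalcin genes were high in ctrl, a little lower on average in the early libraries as deposited, though not for every gene and group under quantile normalization, and far lower in late leukemia, most of all in ML1 hosts. Bglap (ENSMUSG00000074483), which encodes osteocalcin, lies on the minus strand of mouse chromosome 3 at 88383501 to 88384464 of GRCm38. It measured 15.25, 15.27 and 15.36 in the ctrl libraries, against 12.77, 12.94 and 13.24 in the HL60 late libraries and 9.32, 9.63 and 10.04 in the ML1 late libraries. These 3 groups did not overlap: every HL60 late library lay below every ctrl library, and every ML1 late library below every HL60 late one. The mean was 15.29 ± 0.06 (SD, n = 3) in ctrl, 12.98 ± 0.24 in HL60 late and 9.66 ± 0.36 in ML1 late. Ctrl was thus 4.97-fold above HL60 late and 49.5-fold above ML1 late, log2 differences of −2.31 and −5.63 (SE 0.15 each, from the limma fit).

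At the early stage, Bglap measured 14.64, 14.72 and 14.90 in HL60 ch+ libraries and 14.72, 14.94 and 15.03 in ML1 ch+ libraries. The ch− libraries measured 14.78, 15.09 and 15.13 in HL60 hosts and 15.07, 15.11 and 15.33 in ML1 hosts. All 6 ch+ libraries lay below the ctrl range, and so did the HL60 ch− libraries, while the ML1 ch− libraries overlapped ctrl. The differences from ctrl were −0.54 and −0.40 in HL60 and ML1 ch+ cells and −0.30 and −0.12 in HL60 and ML1 ch− cells (SE 0.15 each). Under quantile normalization the ch+ differences became −0.42 and −0.07 and stayed below 0. Those of ch− cells became 0 in HL60 and 0.14 in ML1 hosts, so only the ML1 ch− difference turned. In descending order of the means, Bglap ran from ctrl through ML1 ch−, HL60 ch−, ML1 ch+, HL60 ch+ and HL60 late to ML1 late, and only the steps into HL60 late and into ML1 late separated neighbours without overlap.

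Bglap2 (ENSMUSG00000074486), which also encodes osteocalcin, lies on the same strand of chromosome 3 at 88377736 to 88378699. It measured 15.14, 15.19 and 15.29 in ctrl, 12.67, 12.91 and 13.08 in HL60 late, and 9.40, 9.66 and 10.14 in ML1 late. Again the ctrl, HL60 late and ML1 late libraries did not overlap. The differences from ctrl were −2.32 in HL60 late and −5.48 in ML1 late (SE 0.15 each), folds of 5.00 and 44.5. The early groups lay close together, with means of 14.89 ± 0.15 (SD, n = 3) in HL60 ch+, 14.90 ± 0.13 in ML1 ch+, 14.89 ± 0.18 in HL60 ch− and 15.06 ± 0.22 in ML1 ch−. Under quantile normalization Bglap2 differed from ctrl by 0.00786 in HL60 ch+, 0.0148 in ML1 ch+, −0.0479 in HL60 ch− and 0.108 in ML1 ch− cells, against −0.32, −0.31, −0.32 and −0.14 as deposited. Bglap2 in HL60 hosts was 0.00 apart between ch+ and ch− cells, whose ranges overlapped.

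Bglap3 (ENSMUSG00000074489) lies next to them at 88368616 to 88372743, on the same strand. It was much lower throughout, at 9.90, 9.93 and 9.98 in ctrl, 7.63, 7.73 and 7.98 in HL60 late, and 4.78, 5.00 and 5.71 in ML1 late. It followed the order of Bglap and Bglap2 in these 3 groups, without overlap. The differences from ctrl were −2.16 in HL60 late and −4.77 in ML1 late (SE 0.21 each), folds of 4.45 and 27.4.

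Reads cannot be assigned to the osteocalcin genes with certainty, since their transcripts are nearly alike and the reads were 51 bases long. The coding sequences of Bglap, Bglap2 and Bglap3 are each 285 bases. Bglap differs from Bglap2 at 4 of them (98.6% identical) and from Bglap3 at 13 (95.4%), and Bglap2 differs from Bglap3 at 9 (96.8%). Of the 390 windows of 51 bases in the main Bglap transcript, 290 (74.4%) also occur in Bglap2 and 77 (19.7%) in Bglap3. These shares count single reads. The reads came in pairs, and a pair is shared only where both of its reads are, a share that was not counted. The values of these 3 genes can thus share reads that the counting had to split, and their levels apart from each other are uncertain. A stretch of the length of a read, coding bases 199 to 249, shows this, with capitals at the bases where Bglap3 differs from Bglap (GRCm38, minus strand, chr3:88383674-88383724 in Bglap, chr3:88377909-88377959 in Bglap2 and chr3:88368795-88368845 in Bglap3).
Bglap: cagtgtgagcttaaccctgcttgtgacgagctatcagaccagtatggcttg
Bglap2: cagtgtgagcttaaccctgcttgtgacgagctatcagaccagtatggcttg
Bglap3: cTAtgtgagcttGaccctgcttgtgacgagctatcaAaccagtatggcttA
A read from this stretch is the same for Bglap and Bglap2 and has 5 mismatches in Bglap3. No window of 51 bases is shared between the osteocalcin genes and Col1a1 or Col1a2, or between those chains.

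In late libraries the type I collagen chains stood in the same order as osteocalcin, with smaller differences from ctrl. In early ch+ cells the mean difference was larger for collagen, −0.56 in HL60 and −0.47 in ML1 hosts, against −0.39 and −0.33 for the osteocalcin genes. This contrast was not tested. Without ctrl replicate 375 the collagen means were −0.43 and −0.35, and in HL60 ch+ cells Bglap (−0.54) lay close to Col1a1 (−0.57). Col1a1 (ENSMUSG00000001506), the alpha 1 chain, lies on the plus strand of chromosome 11 at 94936224 to 94953042. It measured 20.10, 20.27 and 20.58 in ctrl, 18.43, 18.74 and 18.78 in HL60 late, and 15.76, 16.06 and 16.62 in ML1 late. The 3 groups did not overlap, with HL60 late between the others. The means were 20.32 ± 0.24 (SD, n = 3), 18.65 ± 0.19 and 16.15 ± 0.43. Ctrl was 3.19-fold above HL60 late and 18.1-fold above ML1 late, log2 differences of −1.67 and −4.17 (SE 0.16 each).

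In the early ch+ libraries Col1a1 measured 19.69, 19.70 and 19.88 in HL60 hosts and 19.69, 19.81 and 19.93 in ML1 hosts. In ch− libraries it measured 19.83, 20.07 and 20.17 in HL60 hosts and 20.05, 20.28 and 20.33 in ML1 hosts. All 6 ch+ libraries lay below ctrl, and both ch− groups overlapped ctrl. The ch+ libraries of ML1 hosts also lay below their ch− libraries, by −0.41, while those of HL60 hosts overlapped theirs, at −0.27 (SE 0.16 each).

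Col1a2 (ENSMUSG00000029661), the alpha 2 chain, lies on the plus strand of chromosome 6 at 4504814 to 4541544, where it overlaps Gm43921, a gene of the same strand whose reads cannot be told apart from its own where they coincide. It measured 19.30, 19.40 and 19.70 in ctrl, 17.66, 17.97 and 18.00 in HL60 late, and 15.39, 15.54 and 15.92 in ML1 late. As with Col1a1, these groups did not overlap. The differences from ctrl were −1.59 and −3.85 (SE 0.14 each), folds of 3.01 and 14.4. In both lines the ch+ libraries of Col1a2 lay below the ch− libraries, by −0.36 in HL60 and −0.31 in ML1 hosts. Under quantile normalization Col1a2 differed from ctrl by −0.65 in ML1 ch+ and ML1 ch− cells alike. It ranked 4 in every library of both groups, so this method gives it equal values and cannot show the ML1 gap.

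**Figure D1:**
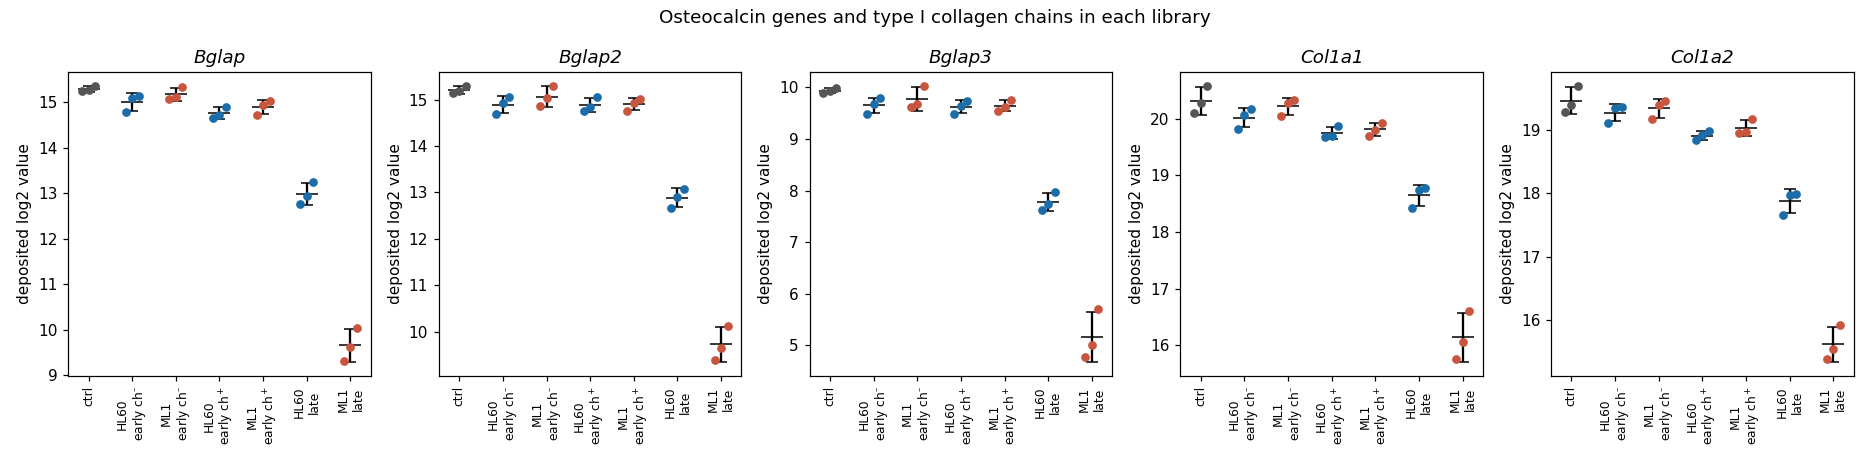
Deposited log2 values of the 5 genes (vertical axes, each with its own range) in the 7 groups (horizontal axis). Points are the 3 libraries of a group, with their mean and SD, and in every panel the ML1 late libraries are lowest and the HL60 late libraries next.

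Counted over the members, all 5 were lower without overlap in HL60 late than in ctrl, where 13.3% of the tested genes were, and all 5 in ML1 late, where 17.1% were. All 5 were lower in ML1 late than in HL60 late, against 12.1% of tested genes. For ch+ cells against ctrl the count was 5 of 5 in HL60 hosts (8.60% of tested genes) and 5 of 5 in ML1 hosts (8.48%). For ch− cells against ctrl it was 3 of 5 in HL60 hosts (6.55%), namely the osteocalcin genes, and 0 of 5 in ML1 hosts (6.80%). Between ch+ and ch− cells, 1 of 5 was lower without overlap in HL60 hosts (8.71%), Col1a2, and 3 of 5 in ML1 hosts (8.55%), Bglap, Col1a1 and Col1a2. The members were chosen on these contrasts, so these shares are printed beside the counts and nothing is read from them. The comparisons with ctrl share the same 3 ctrl libraries.

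The gap between the lines opened at the late stage. ML1 late lay below HL60 late by −3.32 for Bglap, −3.15 for Bglap2, −2.62 for Bglap3, −2.50 for Col1a1 and −2.26 for Col1a2. At the early stage the lines overlapped for all 5 genes, with differences of ML1 minus HL60 between 0.01 and 0.14 in ch+ cells and between 0.07 and 0.20 in ch− cells. From early ch+ to late, HL60 hosts differed by −1.77 for Bglap and −1.11 for Col1a1, and ML1 hosts by −5.23 and −3.67.

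Lower levels in sorted bulk cells can come from fewer cells of a type or from less RNA per cell, and these cannot be told apart here.

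Within a library, osteocalcin and collagen could be set against each other without any scaling between libraries. The log2 value of Bglap minus that of Col1a1 was −5.03 ± 0.18 (SD, n = 3) in ctrl and between −5.05 and −4.91 on average in the 4 early groups. It was −5.67 ± 0.17 in HL60 late and −6.48 ± 0.08 in ML1 late. Bglap thus differed more than Col1a1 in late libraries, and the late ranges, −5.84 to −5.50 and −6.57 to −6.43, did not reach the ctrl range, −5.22 to −4.86. The ranges of all 4 early groups overlapped that of ctrl.

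The chains of type I collagen kept a closer ratio. Col1a1 minus Col1a2 was 0.85 ± 0.04 in ctrl, 0.77 ± 0.01 in HL60 late and 0.53 ± 0.16 in ML1 late (SD, n = 3). The HL60 late range, 0.77 to 0.78, and the ML1 late range, 0.37 to 0.70, both lay below the ctrl range, 0.81 to 0.88. Early groups also had lower means than ctrl, 0.74 in HL60 ch−, 0.78 in ML1 ch+ and 0.84 in HL60 ch+, while ML1 ch− had 0.88, so a lower ratio was not confined to late libraries. Among the osteocalcin genes, Bglap minus Bglap3 was 5.36 ± 0.03 in ctrl, 5.20 ± 0.06 in HL60 late and 4.50 ± 0.15 in ML1 late. It was 5.13 ± 0.04 in HL60 ch+ libraries, also below ctrl without overlap and lower on average than in HL60 late. The highest ML1 ch+ library, at 5.318, lay just below the lowest ctrl library, at 5.319. The ML1 late libraries lay below all others. Bglap3 was low there, at 4.78 to 5.71, where regularization shrinks differences more and shared reads can weigh more. Their part in this ratio was not tested.

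Per kilobase of the main transcript, the log2 level of the genes in ctrl was 17.75 for Col1a1, 17.05 for Col1a2, 16.48 for Bglap, 16.29 for Bglap2 and 10.41 for Bglap3. In ML1 late the levels per kilobase were 13.58, 13.20, 10.85, 10.82 and 5.64, where Bglap and Bglap2 differed by 0.03 ± 0.04 and cannot be ordered. Lengths were 5930 bases for Col1a1, 5348 for Col1a2, 440 for Bglap, 471 for Bglap2 and 717 for Bglap3.

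Leaving out CT010467.1, the collagen chains made up 21.2% to 24.9% of the sum of a ctrl library, 14.8% to 17.7% in ch+ and 17.7% to 23.0% in ch− libraries. In HL60 late libraries they made up 8.89% to 10.7%, and in ML1 late 1.63% to 2.81%. The osteocalcin genes together made up 0.855% to 0.926% of a ctrl library, 0.218% to 0.281% of an HL60 late library and 0.0222% to 0.0387% of an ML1 late library. Shares of the late libraries lay below all others for both products. Since the summed values also differ between late and ctrl libraries, the differences depend on how libraries are scaled. These sums, with or without CT010467.1, hold the members themselves, so lower collagen by itself lowers the sum of a late library. Rescaling to such a sum then raises every value of that library. How much of the gap in sums this makes up was not tested.

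On the deposited scale the median tested gene differed by 0.02 between late and ctrl. When each library was instead rescaled to the mean library sum, that median became 0.71, and without CT010467.1 in the sum it became 0.53. The mean of the osteocalcin genes then differed from ctrl by −1.69 or −1.83 in HL60 late, against −2.26 as deposited, and by −4.48 or −4.70 in ML1 late, against −5.29. For the collagen chains the HL60 late difference became −1.06 or −1.20 from −1.63, and the ML1 late difference −3.20 or −3.42 from −4.01. Quantile normalization, which sets each value by its rank in the library, moved collagen most. Col1a1 then differed from ctrl by −0.59 in HL60 late and −1.78 in ML1 late, and its HL60 late and HL60 ch− differences became equal. Col1a2 differed by −0.65 in HL60 late, HL60 ch−, ML1 ch− and ML1 ch+ alike, and by −2.78 in ML1 late. Col1a1 ranked 3 and Col1a2 ranked 4 in every HL60 late and every HL60 ch− library, so the method gives them equal values there. It therefore cannot show the difference between these groups that the deposited values hold. Both products stayed lower in late libraries than in ctrl under each of these scalings.

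Within groups the 5 genes varied together. After taking each library's deviation from its group mean, Pearson r over the 21 libraries was 0.97 for Col1a1 with Col1a2, 0.95 for Bglap with Bglap2, and between 0.79 and 0.86 for an osteocalcin gene with a collagen chain. These points share their library, its normalisation and, for osteocalcin, its reads.

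By the rule used for likeness, the 5 tested genes with the highest Pearson r over the 21 libraries were named for each member, with the other members left out of the search. For Bglap these were Car3 (carbonic anhydrase 3), Cpe, Col11a1, Dcn (decorin) and Col11a2, with r from 0.991 to 0.995. For Col1a1 they were Col11a2, Serpinf1, Cpe, Slc13a5, a citrate transporter, and Cpz, with r from 0.989 to 0.991. Across all 5 members the rule named Car3, Cpe, Col11a1, Dcn, Col11a2, Col22a1, Serpinf1, Slc13a5, Cpz and Sparc, out of 12971 genes. Car3, for example, had group means of 13.58 in ctrl, 11.66 in HL60 late and 9.03 in ML1 late. Since the late groups lie far from the rest, r is set mainly by them.

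The promoter table of RefSeq GRCm38.p6 (300 bases around each transcript start) held entries for 3 of the 5 members: Bglap, Bglap3 and Col1a2. Bglap2 and Col1a1 are named only. Short motifs were searched on both strands. The core that RUNX factors bind, searched as ACCACA, occurred in 16.8% of all 32851 promoters. The TATA box, searched as TATAAA, occurred in 13.6%, and the CCAAT box, searched as CCAAT, in 37.4%. The GC box that Sp1-like factors bind, searched as GGGCGG, occurred in 35.7%. The Bglap promoter, chr3:88384417-88384716 on the minus strand, held ACCACA at −132, CCAAT at −90 and TATAAA at −27, counted from 1 at the transcript start. That of Col1a2, chr6:4505368-4505667 on the plus strand, held GGGCGG at −205 and −188, CCAAT at −109 and, on the other strand, ATTGG at 1. The sequences are shown because osteocalcin and collagen moved together, with these matches, which do not overlap each other, in capitals.
Bglap promoter: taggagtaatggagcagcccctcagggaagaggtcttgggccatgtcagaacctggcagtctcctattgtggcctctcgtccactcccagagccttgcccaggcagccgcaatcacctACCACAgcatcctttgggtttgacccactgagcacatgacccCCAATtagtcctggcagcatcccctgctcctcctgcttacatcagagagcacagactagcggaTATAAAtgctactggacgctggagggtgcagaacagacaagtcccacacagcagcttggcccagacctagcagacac
Col1a2 promoter: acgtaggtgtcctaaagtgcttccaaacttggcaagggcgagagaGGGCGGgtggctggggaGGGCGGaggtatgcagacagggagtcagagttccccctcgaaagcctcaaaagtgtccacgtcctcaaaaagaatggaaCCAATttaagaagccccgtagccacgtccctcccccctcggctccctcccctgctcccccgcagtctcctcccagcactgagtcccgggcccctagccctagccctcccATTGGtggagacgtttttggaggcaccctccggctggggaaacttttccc
Of these 4 motifs, the Bglap and Col1a2 promoters share CCAAT. The 3 entries of Bglap3 held CCAAT and none of the others. A match says only that these letters are present.

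Other genes of the same pathways were taken from 7 lists of 96 genes, and 91 of them could be tested with limma. The lists, like the members, were chosen with earlier results of these data known. Their counts and p-values, here and below, are thus a description and no independent support. In late cells of both lines together (6 libraries) against ctrl (3), 62 of the 91 passed an adjusted p under 0.1, 10 higher and 52 lower, against 10.2% and 11.4% of all tested genes. Their median difference was −0.68, and that of all tested genes 0.02. Rescaling, which moves all genes of a library alike and uses sums that hold the members, moves this split. With each library at the mean library sum, 34 were higher and 28 lower, where 7786 of the 8302 called tested genes were higher. Without CT010467.1 in the sum, 24 were higher and 35 lower, where 5716 of 6374 were higher. The lists below are counted on the deposited scale, and a list whose balance turned under rescaling is named as such. A rescaling adds the same constant to every gene of a library. The distance of a list's median from that of all tested genes therefore cannot change, and is given below only as a value free of this scaling.

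The transcription factors of osteoblasts come first. Of 12 tested, 6 were lower in late cells and 0 higher, with a median of −0.43. The 2 rescalings gave 4 higher and 4 lower (median 0.27) or 2 higher and 4 lower (median 0.09). Sp7, which osteoblasts need to form, changed by −2.45 (SE 0.36, limma adjusted p = 9.88e-06), with means of 11.46 ± 0.06 in ctrl, 10.01 ± 0.07 in HL60 late and 8.01 ± 0.42 in ML1 late (SD, n = 3). Dlx3, a homeobox factor of osteoblasts, differed by −2.87 (SE 0.43). Runx2, the master factor of the lineage, differed by −0.51 (SE 0.14), a small difference that became 0.19 or 0.00 under the rescalings. In HL60 hosts alone it was −0.30 and did not pass (limma adjusted p = 0.165). In early ch+ cells of both lines together 0 of the 12 passed with limma, and 2 had an unadjusted p under 0.05. With the lines apart, 3 were lower in HL60 ch+ and 1 in ML1 ch+ cells.

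Genes of bone matrix and mineral were more often lower than higher in late cells, 9 against 2 of 16 tested (median −1.43), and the rescalings gave 9 against 5 and 9 against 3. Phospho1, a phosphatase that starts mineralization, differed by −3.46 (SE 0.51), Smpd3, a sphingomyelinase needed for mineralization, by −3.07 (SE 0.35) and Bmp3 by −2.73 (SE 0.45). Ibsp (bone sialoprotein), Sparc (osteonectin) and Alpl (alkaline phosphatase) differed by −1.46, −2.03 and −1.93. Sparc lost its call under quantile normalization, at −0.19 (limma adjusted p = 0.672). Spp1 (osteopontin) differed the other way, by 0.55 (SE 0.20, limma adjusted p = 0.0563), and lost this call without ctrl replicate 373 (0.49), ctrl replicate 374 (0.53), HL60 late replicate 397 (0.49) or HL60 late replicate 398 (0.39). It did not pass in ML1 hosts alone, at 0.24 (limma adjusted p = 0.388), or with no filter. Dmp1, an osteocyte matrix gene, did not pass with both lines together, and it was higher in HL60 late than in ML1 late by 1.77 (SE 0.23). Its means were 10.68 ± 0.32 in ctrl, 10.90 ± 0.27 in HL60 late and 9.13 ± 0.57 in ML1 late.

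Osteocalcin is carboxylated by Ggcx with vitamin K that Vkorc1 recycles. Of 6 tested genes of this step and of related Gla proteins, 2 were lower in late cells and 1 higher. The rescalings turned this to 0 lower and 4 higher or 1 lower and 2 higher. The list median lay 0.22 below that of all tested genes (−0.22), by construction the same on each of these scales. Vkorc1 differed by −0.99 (SE 0.16) and Ggcx by −0.68 (SE 0.16), and neither passed when rescaled to the mean library sum, at −0.30 and 0.01. Without CT010467.1 in the sum, Ggcx was −0.17 and did not pass. Gas6, a growth factor with Gla residues, differed by 0.84 (SE 0.30) and lost its call without ctrl replicate 374 (0.75), ctrl replicate 375 (0.78), HL60 late replicate 397 (0.71), HL60 late replicate 398 (0.62) or HL60 late replicate 399 (0.71), in ML1 hosts alone (0.03) and with no filter. By line, Gas6 lay at 12.96 ± 0.26 in HL60 late, 11.33 ± 0.02 in ML1 late and 11.30 ± 0.28 in ctrl (SD, n = 3).

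Chaperones and enzymes that fold and export type I collagen were lower for 17 of 24 tested and higher for 0 in late cells, with a median of −0.78. The rescalings turned these counts to 5 lower and 7 higher or 9 lower and 5 higher. Relative to the median of all tested genes, that of this list lay at −0.80, by construction the same on each of these scales. Colgalt2, which adds sugars to collagen, differed by −2.47 (SE 0.43), Plod2, the hydroxylase for crosslinks at telopeptides, by −1.48 (SE 0.21) and Creb3l1, a factor that drives Col1a1, by −1.39 (SE 0.16). Serpinh1 (HSP47), the collagen chaperone, differed by −1.14 (SE 0.17) and P4ha1, a prolyl 4-hydroxylase subunit, by −1.03 (SE 0.21). P4ha1 did not pass when rescaled to the mean library sum, at −0.33 (limma adjusted p = 0.200). By line, Serpinh1 lay at 11.95 ± 0.56 in HL60 late and 11.89 ± 0.31 in ML1 late against 13.05 ± 0.18 in ctrl (SD, n = 3), so that its lines overlapped where Col1a1 and Col1a2 did not.

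Trimming and crosslinking genes were lower for 6 and higher for 1 of 11 tested, which the rescalings turned to 2 lower and 5 higher or 3 and 3. From the median of all tested genes, that of this list differed by −0.54, by construction the same on each of these scales. Lox, the enzyme that starts crosslinks, differed by −0.86 (SE 0.15), and Loxl4 by −2.03 (SE 0.23), whereas Loxl1 was higher by 1.71 (SE 0.23). Lox did not pass when rescaled to the mean library sum, at −0.17 (limma adjusted p = 0.309). Pcolce2, an enhancer of collagen trimming, was also lower, with means of 9.04 in ctrl, 7.22 in HL60 late and 4.86 in ML1 late (n = 3 each). Of 9 other fibrillar collagens, 7 were lower and 2 higher, and the rescalings left 6 or 7 lower and 2 higher. The cartilage chains Col2a1, Col11a2 and Col11a1 differed by −3.94, −3.55 and −3.31 (SE 0.43, 0.44 and 0.38). Col5a1, which is built into type I fibres, differed by −0.87 (SE 0.15) and Col3a1, a chain of soft tissue, by 1.02 (SE 0.21). Col5a1 did not pass when rescaled to the mean library sum, at −0.18 (limma adjusted p = 0.277). Receptors and enzymes of collagen breakdown were mixed, 4 higher and 5 lower of 13 tested, or 7 higher and 2 lower under either rescaling. Among these, the receptor Itga1 and the collagenase Mmp13 were higher by 1.83 (SE 0.17) and 1.34 (SE 0.17), and the cartilage receptor Itga10 differed by −2.84 (SE 0.44).

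**Figure D2:**
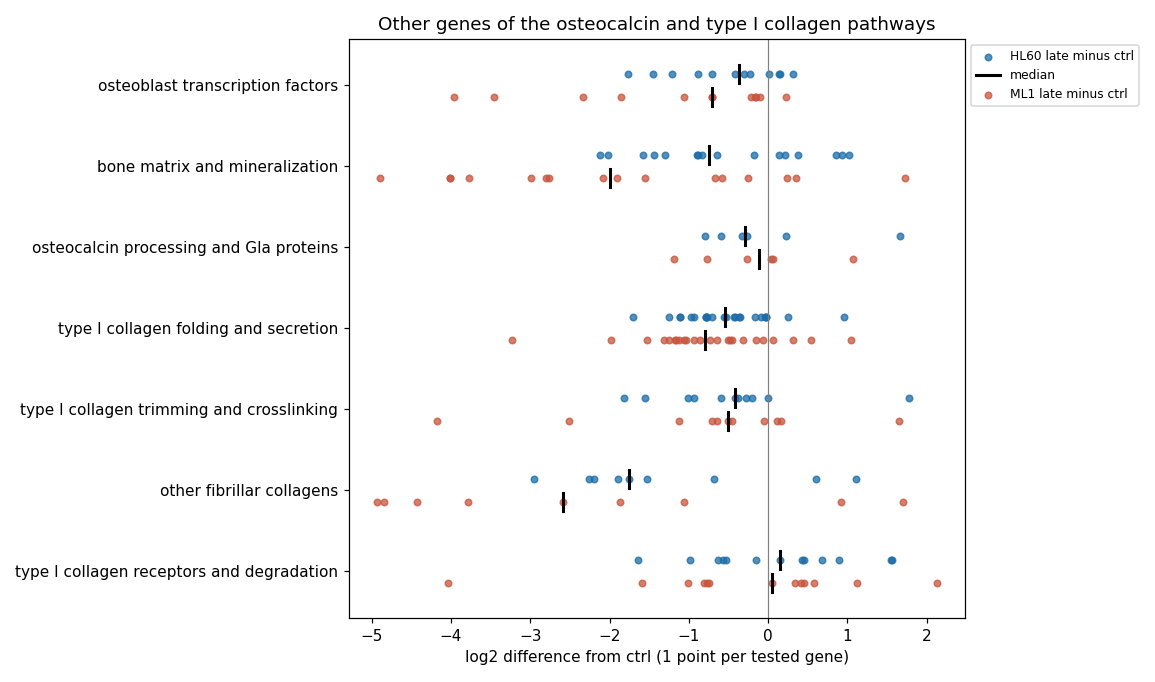
Log2 differences from ctrl of the tested genes of 7 pathway lists, without the 5 members (horizontal axis), by list (vertical axis), for HL60 late (blue) and ML1 late (red). Points are genes and black bars medians, and the other fibrillar collagens have the lowest, at −1.75 in HL60 and −2.59 in ML1 late.

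The lines differed in these lists at the late stage. Of the 91 genes, 30 were higher and 5 lower in HL60 late than in ML1 late by limma, against 3.16% and 0.932% of all tested genes, with a median of 0.37 against 0.00. Rescaling to the mean library sum, which took the median of all tested genes to −0.24, gave 26 higher and 8 lower. Among all tested genes, 261 of the 705 called were then higher in HL60 late, against 410 of 531 as deposited. Bone matrix and mineral genes made up 12 of the 30, among them Alpl at 11.90 ± 0.19 in HL60 and 9.79 ± 0.32 in ML1 late, a difference of 2.11 (SE 0.15, adjusted p = 4.47e-11), with all 3 HL60 libraries above all 3 ML1 libraries. Of the 12 osteoblast factors, 4 were higher in HL60 late, including Sp7 by 2.01 (SE 0.18). At the early stage 0 of the 91 differed between lines by limma in ch+ cells, with 10 at an unadjusted p under 0.05 (0.0154% of tested genes were called higher in HL60 hosts and 0 percent lower). In ch− cells 0 of the 91 differed, with 7 at an unadjusted p under 0.05 (0.0385% higher and 0.0154% lower).

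In ch+ cells of both lines together against ctrl, 10 of the 91 passed limma's threshold, 2 higher and 8 lower, against 3.41% and 2.75% of all tested genes, with a median of −0.24 against 0.01. Those lower were Col2a1 (−2.72), Col27a1 (−2.03), Mgp (−1.62), Ank (−1.02), Loxl4 (−0.76), Loxl3 (−0.62), P3h1 (−0.45) and Kdelr2 (−0.44), and those higher were Gas6 (0.92) and Loxl1 (0.76). Col2a1 and Col27a1 are cartilage collagens, Mgp blocks calcification, Ank exports pyrophosphate, and P3h1 hydroxylates collagen chains. Without ctrl replicate 375, 4 were called, namely Col2a1, Col27a1, Mgp and Ank, and without ctrl replicate 373, 6 were. These 4 held in each of the 9 fits that left out 1 library. The others lost the call in several of them: Gas6 in 7 (differences from 0.82 to 1.08 over the 9 fits), Kdelr2 in 7 (−0.49 to −0.39), P3h1 in 5 (−0.54 to −0.35), Loxl1 in 5 (0.57 to 1.02), Loxl4 in 4 (−0.81 to −0.70) and Loxl3 in 2 (−0.87 to −0.47). Rescaled to the mean library sum, 3 were higher and 6 lower, where 541 of the 811 called among all tested genes were higher. The count was 5 with no filter and 5 at an adjusted p under 0.05. With the lines apart, in the fit with 7 groups, it was 22 in HL60 hosts (2 higher, 20 lower) and 15 in ML1 hosts (2 higher, 13 lower), where 692 and 868 of all tested genes were called, against 800 in the pooled fit.

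In ch− cells against ctrl, 2 of the 91 passed, Mepe higher by 1.25 (SE 0.36) and Furin, a protease that trims precursors, lower by −0.60 (SE 0.15), against 1.13% and 0.786% of all tested genes. The count was 0 by limma without ctrl replicate 373 and 0 without ctrl replicate 375, and 1 without ctrl replicate 374, HL60 ch− replicate 527 or any 1 of the ML1 ch− replicates 543, 544 and 546. Between ch+ and ch− cells, 8 passed, 3 higher and 5 lower, against 3.58% and 2.68%. Lower in ch+ cells were Col2a1 (−1.82), Mepe (−1.80), Col27a1 (−1.42), Ank (−0.72) and Spp1 (−0.65), and higher were Col5a3 (1.07), Furin (0.85) and Mrc2 (0.42). Under rescaling to the mean library sum, which took the median of all tested genes from −0.02 to 0.13, 7 were higher and 5 lower. Among all tested genes, 841 of the 1070 called were then higher, against 464 of 812 as deposited. Genes outside the naming rule among these were chosen after their values were seen.

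Markers of other cell types moved with the members in part, and their share in the members' values was not tested. Chondrocyte markers (11 of 12 tested) fell in late cells for 11 of 11, and in ch+ cells for 11 of 11, where the members differed by at most −0.57 from ctrl. Their summed level (values with the logarithm undone, divided by 1000), led by Col2a1, ran between 72.2 and 158 in the ctrl libraries. The early ch− libraries lay between 35.4 and 88.4, the early ch+ libraries between 8.18 and 27.2, HL60 late between 9.98 and 15.7 and ML1 late between 2.88 and 4.44. The defining marker Matn1 was below the filter on low values.

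Osteocyte markers (4 of 6 tested, led by Phex) summed to 6.17 to 7.45 in ctrl, 4.11 to 5.39 in HL60 late and 1.88 to 2.21 in ML1 late libraries, and 2 of the 4 were lower in late cells, or 1 lower and 1 higher when rescaled to the mean library sum. Sost and Fgf23, which define osteocytes, were below the filter, with mean log2 values of 0.69 and −0.51. CAR cell markers (8 of 8 tested, led by Cxcl12) summed to 44.2 to 68.9 in ctrl and to 106 to 131 in the late libraries, with 6 higher and 1 lower. In early ch+ cells 6 were higher and 0 lower, with sums of 75.1 to 114. Tendon and fibroblast markers (4 of 6 tested, led by Fmod) were lower for 3 and higher for 1, at 4.77 to 9.38 in ctrl, 2.63 to 3.44 in HL60 late and 0.673 to 1.00 in ML1 late, with Tnmd and Scx below the filter. Smooth muscle markers (8 of 8 tested, led by Myh11) were lower for 4, or for 2 with 1 higher when so rescaled, at 10.7 to 25.4 in ctrl and 3.97 to 8.25 in late libraries. In early ch+ cells 6 of the 8 were lower (5 when so rescaled), with sums of 2.58 to 4.47, so they were lower where the members were lower, but lower still than in HL60 late, at 6.24 to 8.25.

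Blood and red cell markers were higher in early cells than in ctrl and late cells. Blood cell markers (9 tested, led by S100a9) summed to at most 0.509 in ctrl and 0.113 in late libraries, and red cell markers (8 tested, led by Hbb-bs) to at most 0.704 and 0.132. In early libraries they reached 1.04 to 3.08 and 4.37 to 12.9. In late cells against ctrl, where the members were lower, 4 of the 8 red cell markers were lower (4 lower and 1 higher when rescaled to the mean library sum). Of the 9 blood cell markers 2 were lower, which so rescaled became 0 lower and 1 higher. Endothelial markers (7 of 8 tested, led by Cdh5, Tie1 below the filter) passed for 0 in late cells by limma, 2 at an unadjusted p under 0.05 and 2 higher when so rescaled, and summed to at most 0.731. Osteoclast markers (3 of 7 tested, led by Ctsk) summed to at most 0.580 and skeletal muscle markers (5 of 7 tested, led by Acta1) to at most 0.553 in any library. In late cells of both lines together, 1 osteoclast and 1 skeletal muscle marker were lower, and 0 of either when so rescaled. By line, 3 of the 3 osteoclast markers were lower in ML1 late and 0 in HL60 late. The 5 tested skeletal muscle markers were all higher in early ch+ cells than in ctrl.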

How the data were processed

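The authors aligned paired 51-base reads to mm10 with STAR 2.5.1b, counted them per gene with RSEM 1.2.29 and normalised them with DESeq2 (1.10.1 in the labels). The deposited values are on a log2 scale: they run from −2.33 to 22.44, although the study's methods speak of log10, and reads per library could not be recovered. From these 21 libraries the values of the members were read as deposited. limma 3.58.1 in R 4.3.3 (lmFit, eBayes with a mean trend) was fitted to 12976 genes with a mean of at least log2(10), with 4 groups (both lines pooled) or 7, 2-sided, Benjamini-Hochberg over all of them, called at an adjusted p under 0.1, and was tested on simulated data. SEs of members come from the fit with 7 groups.

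The members and lists were chosen with earlier results of these data known. Named genes were the members, in each pathway list the 3 called genes with the largest difference in late and in early ch+ cells, a set named for their roles (not every gene the rule takes is described here), and for each member the 5 most alike genes by Pearson r. Alternatives were no filter, quantile normalization, the 2 rescalings, an adjusted p under 0.05, each line alone and leaving out each library. Coding sequences came from the GRCm38 annotation, aligned with Biopython 1.88. Figures were drawn with matplotlib 3.10.9.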

Additional observations from a re-analysis of the deposited data

Results flagged for a closer look

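Among the genes named, each was checked for a library far from the other 5 of its stage, with both lines together, in 129 groups, and 4 stood apart. Chance alone puts about 1 in 20 such groups past the limit used. These were Ggcx at 9.02 in HL60 early ch+ replicate 525, Col3a1 at 13.68 in HL60 late replicate 399, Col5a1 at 11.91 in ML1 late replicate 582 and Nes at 6.61 in ML1 early ch+ replicate 541.

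The late difference from ctrl was not the same in both lines, by limma's test of HL60 late against ML1 late (adjusted p under 0.1), for the genes given here. Higher in HL60 late were Phospho1 by 2.88, Col11a2 by 2.58, Bmp3 by 2.58, Itga10 by 2.40, Pcolce2 by 2.36, Col11a1 by 2.23, Dlx3 by 2.19, Alpl by 2.11, Sp7 by 2.01 and Col2a1 by 1.99. So were Smpd3 by 1.89, Dmp1 by 1.77, Gas6 by 1.63, Colgalt2 by 1.52, Sparc by 1.47, Ibsp by 1.25, Plod2 by 1.01, Loxl4 by 0.96, Spp1 by 0.62, Lox by 0.54 and Kdelr2 by 0.46. Itga1 differed the other way, by −0.58. Without 1 of the 6 late libraries, Kdelr2, Itga1, Spp1 or Colgalt2 lost the call: Kdelr2 without ML1 late replicate 581 (0.46) or 582 (0.41) or HL60 late replicate 397 (0.38) or 399 (0.42), Itga1 without ML1 late replicate 581 (−0.57) or HL60 late replicate 398 (−0.55), Spp1 without ML1 late replicate 583 (0.48) or HL60 late replicate 398 (0.38), and Colgalt2 without HL60 late replicate 398 (1.18). Rescaled to the mean library sum, Lox (0.29), Spp1 (0.37) and Kdelr2 (0.22) did not pass, and without CT010467.1 in the sum Spp1 (0.46) and Kdelr2 (0.31) did not. Sparc (0.61) did not pass under quantile normalization, nor Spp1 and Colgalt2 with no filter.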

How the results depend on the processing

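The late differences of the members kept their sign under every alternative run, and some of the early ones did not. Under quantile normalization the mean osteocalcin difference from ctrl became −1.98 in HL60 late, −5.00 in ML1 late, −0.23 in HL60 ch+, −0.12 in ML1 ch+, −0.10 in HL60 ch− and 0.0292 in ML1 ch−. The collagen mean became −0.62 in HL60 late, −2.28 in ML1 late, −0.62 in HL60 ch− and −0.42 in ML1 ch−, and −1.66 for ML1 late against HL60 late. With this normalization Col1a2 became −0.65 in HL60 late, HL60 ch−, ML1 ch− and ML1 ch+ alike. The method sets each value by its rank, so genes among the few highest follow their rank. It turned Bglap to 0 in HL60 ch− and 0.143 in ML1 ch−, and Bglap2 to 0.00786 in HL60 ch+, 0.0148 in ML1 ch+ and 0.108 in ML1 ch−. Rescaling to the mean library sum, or to that sum without CT010467.1, gave osteocalcin −1.69 and −1.83 in HL60 late and −4.48 and −4.70 in ML1 late, and collagen −1.06 and −1.20, and −3.20 and −3.42. Runx2 in late cells turned to 0.19 and 0.00485, and Ggcx to 0.0140 with the first. The cause was not tested.

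The count of pathway genes called in ch+ cells (10) became 5 with no filter, 5 at an adjusted p under 0.05, 22 in HL60 alone and 15 in ML1 alone. That in ch− cells (2) became 1 with no filter, with quantile normalization, rescaled to the mean library sum and at an adjusted p under 0.05.

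Leaving out 1 library at a time gave 57 to 63 called pathway genes for late against ctrl, 4 to 10 for ch+, 0 to 2 for ch−, 7 to 10 for ch+ against ch−, 30 to 34 for HL60 against ML1 late, 0 in every fit for ch+ between lines, and 0 to 1 for ch− between lines (1 without HL60 ch− replicate 529 or ML1 ch− replicate 544). Osteocalcin means ran from −2.37 to −2.17 in HL60 late, −5.51 to −5.12 in ML1 late, −0.46 to −0.33 and −0.39 to −0.26 in HL60 and ML1 ch+, −0.37 to −0.20 and −0.25 to −0.07 in HL60 and ML1 ch−, and −3.25 to −2.85 between the late groups. Collagen means ran from −1.73 to −1.51, −4.21 to −3.86, −0.66 to −0.43, −0.57 to −0.35, −0.34 to −0.12, −0.21 to 0.01 and −2.57 to −2.23 in the same order. No paired analysis was run, because no label pairs the libraries and no replicate number is shared by 2 groups. The numbers of the ch+ and ch− arms do run in parallel, such as 538, 539 and 541 beside 543, 544 and 546. If matched in that order, which no label gives, all 5 members were lower in the ch+ library of each ML1 pair. In HL60 hosts Col1a2 was lower in the ch+ library of each pair, and the other members went both ways. Bglap lay there at 14.90 against 14.78 (523 and 527), 14.72 against 15.09 (524 and 528) and 14.64 against 15.13 (525 and 529). The share of all tested genes lower in this way was not counted, and the members share their libraries, so nothing is read from this order. Since the depth of each library is unknown, no limit of detection is given.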
